A study of Mus musculus with 2 samples.

Results

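Kinesins, centromere proteins and regulators of the spindle were followed here in iMac cells, mouse macrophages obtained from fibroblasts by c-Myc alone according to the title of the series, and measured cell by cell. The gene set holds every symbol that starts with Kif and a digit (37 genes), every symbol that starts with Cenp (21 genes) and 17 further genes of mitosis: Aurka, Aurkb, Bub1, Bub1b, Ccnb1, Ccnb2, Cdc20, Plk1, Ube2c, Birc5, Top2a, Mki67, Ndc80, Nuf2, Tpx2, Nusap1 and Prc1. That made 75 of the 20034 genes counted, chosen by symbol and by no measured value. The annotation GENCODE M21 has 80 genes that meet these criteria, and the 5 without a row were Kif12, Kif26a, Kif2b and the pseudogenes Kif22-ps and Kif4-ps. The symbol rule also took in Kif1bp, which encodes a kinesin binding protein, and Kif16bos, an antisense transcript.

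Both labelled libraries, one of cDNA and one of oligo, are of wild type iMac cells run on droplets (DNBelab C4), and the labels name no treatment, time point or control group. Barcode names in the 1 deposited matrix carry no sample, so the data were treated as 1 sample without a replicate, and no test and no p-value was computed. Of 6837 barcodes, 6751 passed the limits for cells (500 genes or more, mitochondrial share of 15% or less), with a median of 17178 counts (1001 to 192369) and 3160 genes per cell. A level is the share of a gene in the summed counts of the cells, scaled to 1000000 (CPM). Its 95% Poisson interval, like every interval here, covers counting error only. The labelled cell type had its markers: 10 of 10 macrophage genes reached 10 CPM (11.9 to 5699.7 CPM), whereas 0 of 10 fibroblast genes did, the highest at 0.823 CPM. Of markers of other blood cells, 4 of 5 monocyte genes, 1 of 7 neutrophil genes (Prtn3, at 96.3 CPM) and 0 of 5 T and NK cell genes reached 10 CPM.

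In dividing cells, the centromere is the stretch of chromatin, marked by the histone variant CENP-A, on which the kinetochore is built. The kinetochore holds on to spindle microtubules through the NDC80 complex and CENP-E, while motors of the kinesin family slide, crosslink or shorten those microtubules. The checkpoint kinases hold back the anaphase-promoting complex (APC/C) until the chromosomes are attached, after which CDC20 and UBE2C drive the destruction of cyclin B. Many of these genes are transcribed late in the cell cycle through promoters with a cell cycle genes homology region (CHR) and NF-Y boxes. Other kinesins carry organelles and vesicles along microtubules in cells at any stage, and in macrophages motors of this kind move endosomes and lysosomes.

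The promoters of 6 genes are shown because the levels below part these genes into those that moved with cell cycle state (Cdc20, Plk1, Kif11 and Top2a) and those that moved little (Cenpb and Kif1c). The sequences are from RefSeq (GRCm38.p6), 5′ to 3′ on the gene's own strand. Each covers up to 100 bases before the RefSeq start and stops before any annotated exon. Capitals mark matches to TTTGAA or TTTAAA, the core letters of the CHR, or to CCAAT, the NF-Y box, on either strand. The window of Cdc20 lies at chr4:118437353-118437443 on the minus strand, that of Plk1 at chr7:122159335-122159434 on the plus strand, that of Kif11 at chr19:37376282-37376381 on the plus strand and that of Top2a at chr11:99024190-99024289 on the minus strand. The window of Cenpb lies at chr2:131180068-131180167 on the minus strand and that of Kif1c at chr11:70700448-70700547 on the plus strand.
Cdc20: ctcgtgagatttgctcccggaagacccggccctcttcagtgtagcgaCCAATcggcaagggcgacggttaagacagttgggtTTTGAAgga
Plk1: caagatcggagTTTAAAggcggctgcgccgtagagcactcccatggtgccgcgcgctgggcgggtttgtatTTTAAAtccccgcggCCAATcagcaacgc
Kif11: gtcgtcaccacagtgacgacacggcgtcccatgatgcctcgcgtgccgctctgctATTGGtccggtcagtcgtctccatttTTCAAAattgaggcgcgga
Top2a: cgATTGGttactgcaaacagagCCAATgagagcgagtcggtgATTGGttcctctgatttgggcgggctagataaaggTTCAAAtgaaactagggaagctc
Cenpb: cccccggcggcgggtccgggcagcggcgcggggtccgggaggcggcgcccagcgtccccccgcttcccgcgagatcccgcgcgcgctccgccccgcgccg
Kif1c: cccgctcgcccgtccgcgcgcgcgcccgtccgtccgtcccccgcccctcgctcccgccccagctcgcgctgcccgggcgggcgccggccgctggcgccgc
Within the printed windows and counted from the start site, the first base of the CHR letters lay at -18 in Cdc20, at -89 and -29 in Plk1, at -19 in Kif11 and at -23 in Top2a. The CCAAT letters lay at -53 in Cdc20, at -14 in Plk1, at -45 in Kif11 and at -98, -78 and -58 in Top2a. The windows of Cenpb and Kif1c held neither, at 88% and 89% G and C. Outside the printed windows, nearer to the start or past it, Cdc20 had CCAAT at -8 and Plk1 had TTTGAA at 31. The printed windows do not stand for all genes of the set. Bub1, which also moved, had CCAAT but no CHR letters, and Cenpx, which moved little, had CCAAT near its start. Shares over the set are given with the promoter matches below.

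The 75 genes together had 399153 counts, 0.249% of all counts, and a median of 27 counts from 15 of these genes per cell. In all, 46 genes reached 10 CPM, and 11 of the other 29 were below 1 CPM. Their median was 15.01 CPM, against 2.03 CPM for all 20034 genes, of which 6656 reached 10 CPM. To compare cells at one depth, each cell was thinned to 10000 counts, which kept 4312 cells and left out 2439 shallower ones. At that depth, 5 or more of the genes were seen in 94.4% of cells (93.7 to 95.1%, Clopper-Pearson), against 85.0% of all kept cells unthinned. The sum over the genes ran from 0 to 95 thinned counts per cell, with a median of 20. Only 3 of the 4312 thinned cells had none. No cell type known to lack these genes was identified, so the share that free RNA gives was not measured.

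Orders by CPM below are of counts, which also depend on transcript length. Levels per kilobase of exon are given where genes are compared. The regulators of anaphase were among the genes with most counts. Ube2c, the ubiquitin-conjugating enzyme of the APC/C, was at 185 CPM and was seen in 59.7% of cells. Cdc20, the activator of that complex, was at 92.5 CPM, and its substrates Ccnb1 and Ccnb2, the B-type cyclins, were at 72.1 and 71.1 CPM. Divided by exon length, Ube2c had 71.3 CPM per kilobase, Cdc20 49.5, Ccnb2 46.5 and Ccnb1 17.1. The exons of Ube2c overlap those of Tnnc2 on the other strand over 592 bases, and whether the counting used strand is not given in the sources used here.

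The kinases and the chromosome proteins were detected throughout. Plk1, a kinase needed for spindle poles and mitotic exit, was at 81.0 CPM, Aurka, the kinase of spindle poles, at 43.6 CPM, and Aurkb, the kinase of the chromosomal passenger complex, at 36.2 CPM. The checkpoint gene Bub1b was at 38.5 CPM and the kinase Bub1 at 12.8 CPM. Birc5 (survivin, a passenger complex subunit) stood at 182 CPM, Top2a, the topoisomerase that untangles sister chromatids, at 114 CPM and Mki67, the Ki-67 antigen, at 105 CPM. Per kilobase, Birc5 (53.5 CPM) was above Plk1 (36.8 CPM), Top2a (12.6 CPM) and Mki67 (10.4 CPM).

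Among 17 genes of centromeric chromatin and the inner kinetochore, called centromere genes below, 11 reached 10 CPM. Cenpw (140 CPM), Cenpa (135 CPM), Cenpx (122 CPM) and Cenpb (110 CPM) were highest. Cenpa encodes the centromeric histone, Cenpb a protein that binds a motif in satellite DNA, and Cenpw and Cenpx small histone-fold proteins. Per kilobase, Cenpx (112.9 CPM), with only 1077 bases of exon, was the highest of the 75 genes. Cenph was at 46.0 CPM, Cenps at 26.7 CPM and Cenpq at 21.5 CPM. The scaffold gene Cenpc1 was at 11.2 CPM, and Cenpt (9.22 CPM), Cenpn (9.19 CPM), Cenpu (8.31 CPM), Cenpi (7.72 CPM), Cenpo (5.86 CPM) and Cenpl (5.13 CPM) stayed below 10 CPM. The outer kinetochore genes Cenpf (34.7 CPM), Cenpe (29.4 CPM), Nuf2 (28.8 CPM) and Ndc80 (15.6 CPM) were all above it.

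Of 12 kinesins with roles in division, 8 reached 10 CPM. Kif23 (40.9 CPM) and Kif20a (37.1 CPM), both motors of the central spindle in cytokinesis, were highest. Kif11, which pushes the spindle poles apart, was at 26.0 CPM, the chromosome motor Kif22 at 21.1 CPM, the microtubule depolymerase Kif2c at 20.6 CPM and Kif15, which works beside Kif11, at 19.7 CPM. Kif20b was at 16.5 CPM and Kif4 at 13.6 CPM. Kif18b (6.49 CPM), Kif14 (5.91 CPM), Kif18a (5.18 CPM) and the centriole kinesin Kif24 (3.41 CPM) were lower. The spindle proteins Tpx2 (60.3 CPM), Prc1 (42.5 CPM) and Nusap1 (27.9 CPM), which nucleate, crosslink and bundle microtubules, all passed 10 CPM. Per kilobase, Tpx2 stood at 12.9 CPM, Kif20a at 8.54, Nusap1 at 6.87, Kif23 at 5.17 and Prc1 at 5.16. Exons of Kif20a overlap Cdc23 over 1271 bases and those of Prc1 overlap Rccd1 over 911 bases, in both cases on the other strand. In all, 23 of the 75 genes overlapped another counted gene in exons, 20 of them on the opposite strand.

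Of the 23 kinesins placed in a group of other roles, 7 reached 10 CPM. The name of the group does not mean that none of them, such as Kif2a, acts in division. Kif5b, the heavy chain of conventional kinesin, was at 93.5 CPM and was seen in 59.1% of cells. Kif2a (18.9 CPM), Kif1b (18.1 CPM), Kif1c (14.7 CPM), the endosome motor Kif16b (13.8 CPM), Kif3a (11.3 CPM) and Kif13a (10.4 CPM) followed. Kif1a and Kif6 had 2 counts each in all kept cells, and the neuronal relatives of Kif5b stood at 0.368 CPM (Kif5a) and 0.143 CPM (Kif5c). The antisense transcript Kif16bos had 6 counts.

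Cells were then parted by 2 scores that hold none of the 75 genes: summed thinned counts of 42 S phase genes and of 34 other G2 and M phase genes. Each score was parted at its median, 17 and 25 counts. This gave 1311 cells with both scores low (low-score cells), 858 with a high S score only (S-only cells), 1146 with both high (double-high cells) and 997 with a high G2M score only (G2M-only cells). These are ranges along scores and not cell types, and 787 cells for the S score and 530 for the G2M score lay within 2 counts of the limit. The 75 genes summed to 1184 CPM in low-score, 1614 in S-only, 3122 in double-high and 3762 CPM in G2M-only cells. Median thinned counts of the set were 10, 15, 27 and 33 per cell. Other quantities moved with the ranges. Median depth was 24119, 29232.5, 37332.5 and 30462 counts, summed macrophage markers were at 14912, 12630, 10928 and 11252 CPM, and the nuclear RNA Malat1 took 0.00189%, 0.00236%, 0.0208% and 0.0488% of counts. Summed neutrophil markers, of which Prtn3 alone reached 10 CPM over all cells, were at 78.1, 117, 106 and 106 CPM. Their part in the results that follow was not tested. Fibroblast markers stayed between 0.671 and 0.955 CPM in the 4 ranges.

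In G2M-only cells, 32 of the 46 genes at 10 CPM or more were at least 2-fold above low-score cells and 0 were 2-fold lower, where 4.61% of the 6656 genes at that level were 2-fold higher and 0.391% lower. The median log2 ratio of the 46 genes was 2.12, against 0.24 for all genes at that level, with a pseudocount of 1 CPM. Of the 29 genes below 10 CPM, 9 passed 2-fold, against 3.28% of all genes. The scores were made from genes of the same processes, so a relation to them is what their choice favours, and the order of the genes within it is what is described here.

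Cenpf, a large coiled-coil protein of the kinetochore corona, had the highest ratio. Its level was 4.99 CPM (4.30 to 5.76) in low-score, 5.75 CPM in S-only, 45.1 CPM in double-high and 76.7 CPM (73.9 to 79.6) in G2M-only cells, a log2 ratio of 3.70 between the last and the first. Cenpe, the corona motor that brings chromosomes to the spindle equator, went through 4.96, 11.9, 44.1 and 50.9 CPM (log2 ratio 3.12). The 2 corona genes thus differed in S-only cells, where Cenpe was above its low-score level by a log2 ratio of 1.11 and Cenpf by 0.17.

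Plk1 was at 17.7, 25.2, 107 and 160 CPM in the same order of ranges (log2 ratio 3.11). Ube2c was at 53.3, 50.1, 220 and 390 CPM (2.85), and its S-only and low-score intervals overlapped. Cdc20 went through 33.1, 37.8, 105 and 180 CPM (2.41) and Ccnb1 through 23.0, 30.03, 93.2 and 131 CPM (2.45). Ccnb2 differed from Ccnb1 at the low end, with 54.9, 46.5, 74.2 and 106 CPM (0.94), so of the 4 genes of cyclin B and the APC/C it alone stayed under 2-fold. That call depends on the setting: 3 others put Ccnb2 over 2-fold, at log2 ratios of 1.01 to 1.32.

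All 12 kinesins placed in the division group passed 2-fold between low-score and G2M-only cells, with a median log2 ratio of 2.52 and a range of 1.80 to 3.03. The placing was a choice made here. Kif2a, placed among the kinesins of other roles, did not pass (0.70). Kif20b was highest (2.42 to 26.8 CPM), followed by Kif23 (9.10 to 72.9 CPM, 2.87) and Kif2c (4.94 to 40.2 CPM, 2.80). Kif24 (1.80), Kif18a (2.17) and Kif15 (2.19) had the lowest ratios of this group. The 3 spindle proteins were close together at 3.11 (Prc1), 3.08 (Nusap1) and 2.85 (Tpx2). All 5 kinase and checkpoint genes (2.03 to 3.11), both NDC80 genes (2.07 and 2.49) and the 3 chromosome proteins (1.74 to 2.56) passed as well.

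The centromere genes were mixed, with 10 of 17 past 2-fold and a median of 1.25. Cenpq (2.19), Cenpi (1.99) and Cenpn (1.96) were highest. Cenpa was at 72.6 CPM in low-score and 250 CPM in G2M-only cells (1.77). Cenps (0.61), Cenpx (0.10) and Cenpb (-0.10) were lowest. Cenpb, at 113, 121, 105 and 105 CPM, was nearly level over the 4 ranges, and so was Cenpx at 113, 127, 127 and 121 CPM. Cenpv, counted apart from these 17, was at 61.2 and 75.1 CPM (0.29).

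Of the 23 kinesins of other roles, 1 passed 2-fold (Kif21b, 4.19 to 9.47 CPM, 1.01, below 10 CPM over all cells), with a group median of 0.07. Kif5b went from 71.3 to 106 CPM (0.57), Kif2a from 12.5 to 20.9 CPM (0.70), and Kif13a (0.97) and Kif16b (0.93) came near 2-fold. Kif1c was at 14.5, 16.0, 14.0 and 14.8 CPM (0.03) and Kif1b at 16.6 and 19.1 CPM (0.19). Below 10 CPM, Kif3c (-0.35) and Kif7 (-0.17) had the lowest ratios of the group.

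**Figure D1:**
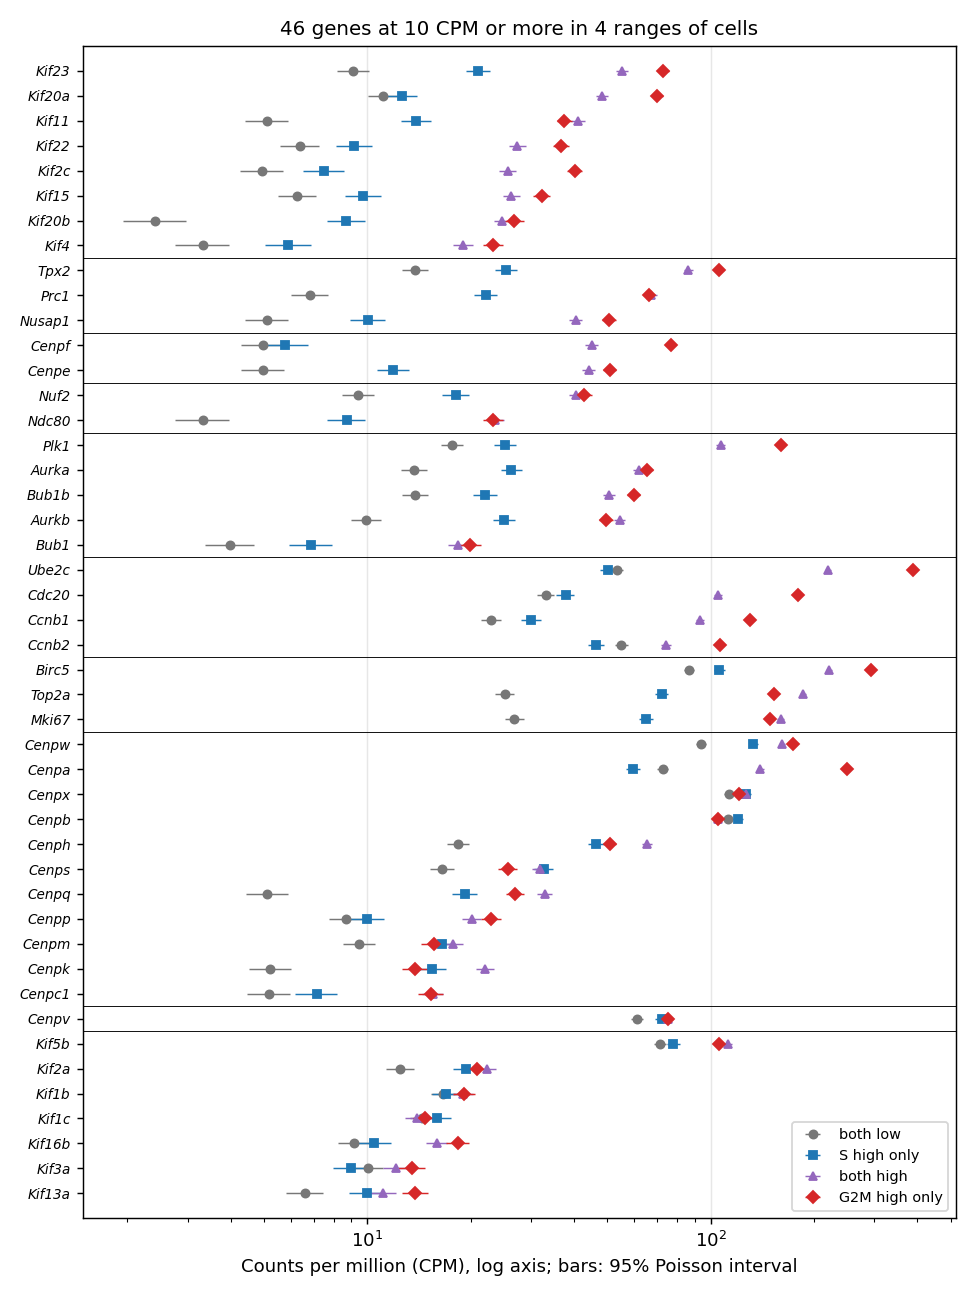
Level of each of the 46 genes at 10 CPM or more in 4 ranges of cells, in CPM on a log axis, with bars for the 95% Poisson interval. Cenpf runs from 4.99 to 76.7 CPM, whereas the 4 points of Cenpb lie between 105 and 121 CPM.

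The S-only cells separated the genes further. Against low-score cells, 12 of the 46 genes were 2-fold higher and 0 were 2-fold lower, where 2.33% of genes at 10 CPM or more were higher and 0.135% lower. Their median log2 ratio was 0.55, against 0.10 for all genes at that level. The count depends on the limits: it was 2 with a pseudocount of 10 CPM and 20 when the outer terciles of each score were compared. By role and at any level (1.1% of all genes were 2-fold higher), 6 of 17 centromere genes and 4 of 12 division kinesins passed. Of 23 other kinesins and of the 4 genes of cyclin B and the APC/C, 0 did. The pseudocount pulls ratios of genes near 1 CPM toward 0, and these counts depend on it. Kif24, at 0.93 CPM in low-score and 2.44 CPM in S-only cells, had a ratio of 0.83 and was not counted. Nor were Kif18b (1.41 and 3.07 CPM, 0.76), Kif14 (0.96 and 2.05 CPM, 0.64) and Kif7 (0.61 and 1.24 CPM, 0.47).

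Of the centromere genes, Cenpq went from 5.12 to 19.2 CPM (1.72), Cenpi from 1.73 to 7.31 CPM (1.61) and Cenpu from 3.13 to 9.95 CPM (1.41). Cenpk went from 5.23 to 15.5 CPM (1.40), Cenpn from 2.44 to 7.55 CPM (1.31) and Cenph from 18.4 to 46.4 CPM (1.29). Other genes of this group stayed under 2-fold: Cenps (0.94), Cenpo (0.76), Cenpm (0.74), Cenpl (0.51), Cenpw (0.50), Cenpc1 (0.40), Cenpp (0.18), Cenpx (0.16), Cenpb (0.10) and Cenpt (0.03). Outside the group, Prc1 (1.57), Kif20b (1.50), Top2a (1.48), Kif11 (1.29), Aurkb (1.25), Mki67 (1.24), Ndc80 (1.17), Kif18a (1.13), Kif23 (1.12) and Cenpe (1.11) passed. At the other end, Cenpa was at 72.6 CPM in low-score and 59.4 CPM in S-only cells (-0.29), Ccnb2 at 54.9 and 46.5 CPM (-0.24) and Ube2c at -0.09.

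**Figure D2:**
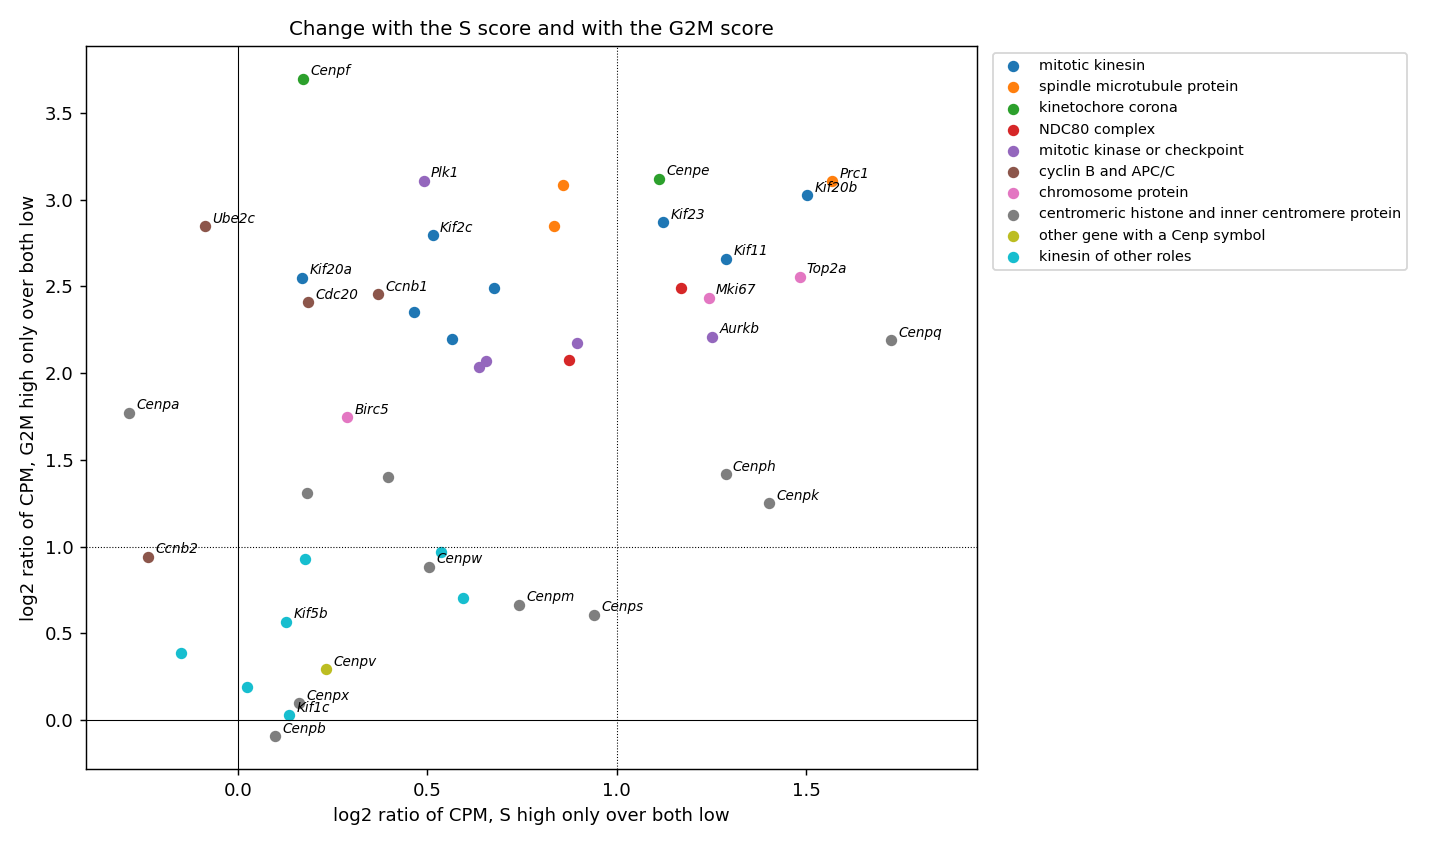
Log2 ratio of CPM in S-only over low-score cells (x axis) and in G2M-only over low-score cells (y axis), 1 point for each gene at 10 CPM or more, coloured by role. The group that the legend names centromeric histone and inner centromere protein holds the centromere genes of the text. Cenpq (1.72 and 2.19) lies to the right, Cenpf (0.17 and 3.70) and Ube2c (-0.09 and 2.85) at the upper left, and Cenpb and Cenpx near the origin.

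Where both scores were high, 31 of the 46 genes were 2-fold above low-score cells and 0 were 2-fold lower (5.24% and 0.541% of genes at that level), with Prc1 (3.13), Cenpf (2.94) and Cenpe and Kif20b (both 2.92) highest. Against S-only cells, 29 of the 46 were 2-fold higher in G2M-only cells and 0 were 2-fold lower (1.94% and 0.541% of genes), led by Cenpf (3.53), Ube2c (2.93) and Plk1 (2.62). Cenps (-0.34), Cenpb (-0.19), Cenpk (-0.15) and Kif1c (-0.11) had the lowest ratios there among the 46.

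G2M-only and double-high cells both had a high G2M score, and 0 of the 46 genes differed 2-fold between them in either direction (0.0601% of genes were higher and 0.541% lower). When outer terciles were compared, 4 were 2-fold higher: Cenpa (1.19), Ube2c (1.18), Cdc20 (1.05) and Cenpf (1.02). With the medians as limits the order was similar, with Cenpa at 140 CPM in double-high and 250 CPM in G2M-only cells (0.84), Ube2c at 0.83, Cdc20 at 0.77, Cenpf at 0.75, Kif2c at 0.63 and Plk1 at 0.58. Genes at the other end were mostly centromere genes: Cenpk (22.1 and 13.8 CPM, -0.64), Cenpu (-0.48), Cenph (-0.36), Cenps (-0.30) and Cenpq (-0.28), with Top2a at -0.28. The median of all genes at 10 CPM or more was 0.00.

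The course over 10 bins of the G2M score, from 496 cells with scores of 0 to 9 to 426 cells with scores of 49 to 88, gave wider spans. Cenpf went from 1.4 CPM in the first to 121 CPM in the last bin, 50.5-fold with 1 CPM added to both. Plk1 was higher in each bin than in the one before, from 4.8 to 200.5 CPM (35.0-fold), and Ube2c from 23.4 to 534 CPM (21.9-fold). Nusap1 (29.9-fold), Tpx2 (29.0-fold), Cenpe (26.1-fold), Prc1 (24.7-fold) and Kif20a (24.3-fold) spanned about as much as Mki67 (23.5-fold). Ccnb2 spanned 4.2-fold (27.0 to 117 CPM), Kif5b 2.1-fold (65.7 to 141 CPM) and Cenpb 0.9-fold. Of the 75 genes, 54 were highest in the last bin. The share of all genes highest there is not given, so this count shows nothing particular to the set. Cenps was highest in bin 7 (34.0 CPM, with 24.5 CPM in the last).

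The share of thinned cells with a count followed the same order. Cenpf had a count in 2.0% of cells in the first bin and 60.1% in the last, and Ube2c in 23.4% and 96.7%. Cenpb had one in 62.1% and 65.0%. Median depth before thinning was 24422 counts in the first bin and 39342.5 in the last.

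**Figure D3:**
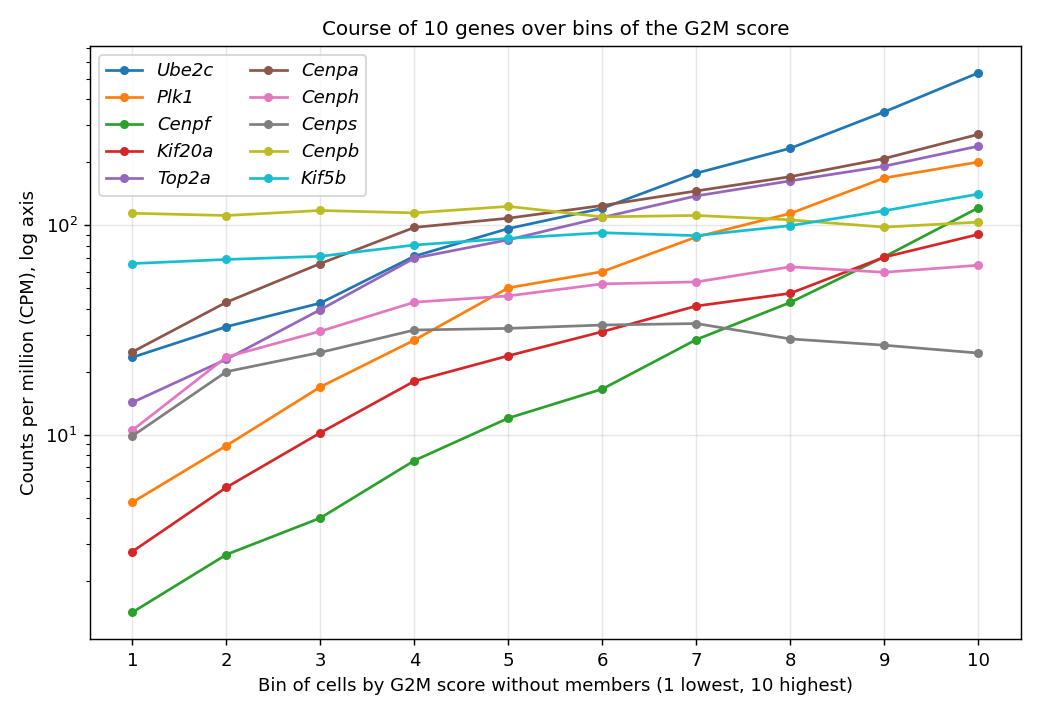
Level of 10 genes (y axis, CPM on a log scale) in 10 bins of cells ordered by a G2M score that holds none of them (x axis). The line of Cenpf climbs from 1.4 to 121 CPM and that of Cenpb stays between 98.0 and 123 CPM.

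From cell to cell, the genes varied to different degrees. The Fano factor (variance over mean of thinned counts, 1 for pure counting noise) was 3.49 for Ube2c, 2.21 for Top2a, 2.19 for Mki67, 2.05 for Plk1 and 2.04 for Cenpa. It was 1.09 for Kif1c and Cenpp, 1.11 for Cenpc1, 1.13 for Bub1 and 1.18 for Cenpb, against 1.31 for Kif5b. Genes of division were thus found at both ends. The factor nears 1 where counts are few, so a low value does not show that a gene varied little. Bub1, for example, was at 3.98 CPM in low-score and 19.9 CPM in G2M-only cells. Spearman correlations over the 4312 thinned cells, which share 1 matrix and 1 depth, were highest for Ube2c with Plk1 (0.506), Birc5 with Ube2c (0.444), Ube2c with Cdc20 (0.434), Cenpf with Ube2c (0.429), Cdc20 with Cenpa (0.418) and Top2a with Mki67 (0.416). Over the 703 pairs of division genes, Cenpb and the other centromere genes included, the median was 0.113 (-0.056 to 0.506). It was 0.0234 over 304 pairs of a division gene and another kinesin or Cenpv, and 0.0215 over the 28 pairs of the latter. These values are low in sparse counts and serve as description.

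Against the sum of the other genes of the set, Ube2c (0.622), Plk1 (0.593), Birc5 (0.559) and Cdc20 (0.526) had the highest correlations and Cenpb (-0.027), Kif1c (-0.006) and Cenpx (0.008) the lowest. Outside the set and both scores, the genes with the highest correlation with the sum of the set were Ccna2 (0.489), Tuba1c (0.479), Ube2s (0.469), Arl6ip1 (0.461), Tuba1b (0.448), H2afx (0.441) and Racgap1 (0.404). Ccna2 encodes cyclin A2, Ube2s the chain-extending enzyme of the APC/C, Racgap1 the partner of Kif23 in the central spindle, and Tuba1b and Tuba1c are alpha-tubulins. Ncl, Tubb5, Incenp, Nucks1, H3f3b, Hnrnpab, Serbp1 and Pclaf followed, between 0.386 and 0.357.

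**Figure D4:**
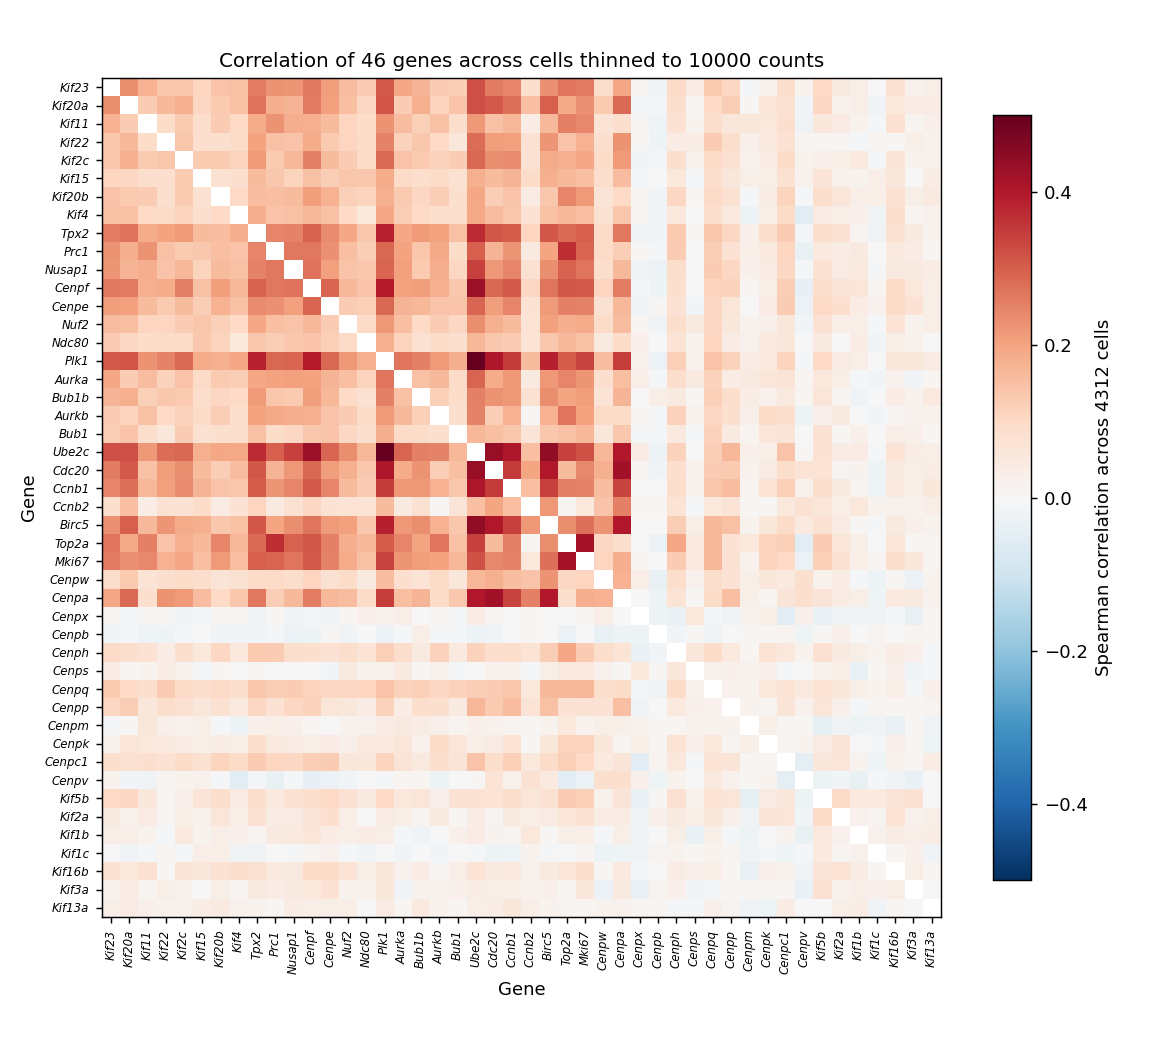
Spearman correlation of each pair of the 46 genes across 4312 cells thinned to 10000 counts, as a colour scale with the genes on both axes. The highest value is 0.506, for Ube2c and Plk1, while rows such as Kif1c and Cenpb stay near 0.

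Other genes of the same machinery were taken from lists that hold no gene of the set, and their ratios are again between G2M-only and low-score cells, where 4.61% of genes at 10 CPM or more were 2-fold higher and 0.391% lower. Of 17 kinetochore and checkpoint genes at 10 CPM or more, 11 passed 2-fold and 0 were 2-fold lower (median 1.61). The highest by level were Bub3 (99.4 CPM), Pmf1 (79.4 CPM), Incenp (74.4 CPM) and Spc24 (64.5 CPM), and among the largest ratios were those of the kinetochore scaffold Knl1 (2.73) and of Spc25 (2.56), which joins Ndc80 and Nuf2 in 1 complex.

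Of 19 spindle assembly genes, 4 passed (median 0.69). Tuba1b (1434 CPM, 0.69), Tubb5 (813 CPM, 0.64), Dynll1 (403 CPM, 0.04) and Stmn1 (234 CPM, 0.79) were highest by level, and the spindle pole gene Aspm (3.41), Cep55 (2.72), which acts in the final cut between daughter cells, and Racgap1 (2.09) had the largest ratios. Of 18 genes of anaphase and the APC/C, 7 passed (median 0.54). Ube2s (193 CPM, 1.29), Anapc11 (148 CPM, 0.15), Pttg1 (121 CPM, 1.15) and Anapc5 (117 CPM, 0.25) were highest by level. Espl1, the protease that cleaves cohesin (2.27), and Ccna2 (2.23) had the largest ratios.

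Of 14 transcription factors and cofactors of cell cycle genes, 4 passed (median 0.59). Foxm1, an activator of G2 and M phase genes, went from 6.69 to 25.03 CPM (1.76), Nfyb, an NF-Y subunit, had a ratio of 1.13 and Rbl1 of 1.04. Rbbp4 (136 CPM), Tfdp1 (53.3 CPM), E2f4 (53.1 CPM) and Mybl2 (29.98 CPM) were highest by level. Of 9 kinesin light chain and other kinesin genes, 3 reached 10 CPM (Klc1 at 33.0, Kifap3 at 26.3 and Klc4 at 22.2 CPM), and 0 of these 3 passed. Below that level, and named after their values were seen, Kifc1 went from 1.49 to 14.0 CPM (2.60) and Kifc5b from 0.53 to 5.01 CPM (1.97). These are closely related genes of a spindle motor, between which the counting could have split reads.

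The same genes were set against how mature the cells were and against Myc. Between the upper and the lower tercile of cells by a score of 10 mature macrophage genes, 0 of the 46 genes differed 2-fold in either direction (2.13% of genes at that level were 2-fold higher and 0.18% lower), and the set had a median log2 ratio of -0.13. Cenpm (17.2 CPM in the lower and 11.6 CPM in the upper tercile, -0.54), Cenpv (-0.51) and Bub1b (-0.47) were lowest, and Kif1b (14.7 and 21.6 CPM, 0.52) was highest. Among genes below 10 CPM, Kif13b (4.89 and 10.03 CPM, 0.91) and Kif3b (6.65 and 10.4 CPM, 0.58) had the highest ratios. The upper tercile had a lower median G2M score (21 against 27 counts). Summed neutrophil markers, of which Prtn3 alone reached 10 CPM over all cells, were at 42.3 CPM in it and at 179.6 CPM in the lower tercile. Their part in these ratios was not tested.

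Cells of high G2M score were also compared alone, an alternative added after seeing the data. Between 547 cells of the upper and 836 of the lower tercile, 0 of the 46 genes passed 2-fold in either direction (1.49% of genes were higher and 0.15% lower). Of the 46 genes, 38 were above 0, and the share of all genes above 0 is not given. The median was 0.22 for the 46 genes, against 0.06 for all genes. The upper tercile of these cells had a median depth of 35944 counts and a median G2M score of 38, against 32260 and 36. Summed neutrophil markers, again with Prtn3 alone at 10 CPM over all cells, were at 44.8 against 178.6 CPM. The part of these differences was not tested. Cenpf was at 72.9 CPM in the upper tercile (0.58), Ube2c at 348 CPM (0.42), Prc1 at 77.4 CPM (0.45) and Cenpv at 66.1 CPM (-0.35). Cells with 2 or more thinned counts of Myc numbered 321 and cells with 0 numbered 3079. Again 0 of the 46 genes differed 2-fold (0.015% of genes were higher and 0.03% lower), with a median of 0.27 against 0.06 for all genes. Kif20b (23.9 and 15.1 CPM, 0.63), Bub1 (18.5 and 11.9 CPM, 0.60) and Cenpe (0.56) had the highest ratios among the 46. The Myc ratios depend on the thinning. At 5000 counts, 36 of the 46 genes kept their sign and 27 fell outside the interval of the main ratio. For G2M-only against low-score cells at that depth, 46 kept their sign and 26 fell outside it. Aurkb (0.32 here) had the largest ratio that changed sign under another setting. Cells with Myc counts had more counts (median 34233 against 28576) and a higher G2M score (30 against 25). The Myc count does not tell the endogenous gene from an introduced copy.

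Deeper and shallower cells differed as well. The set summed to 2907 CPM in 733 cells below 2000 counts, to 1985 CPM in 895 cells of 5000 to 10000 counts and to 2841 CPM in 1396 cells of 40000 counts or more. Low and high depth were thus both above the middle, and Ube2c followed with 208, 134 and 228 CPM.

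Promoters matched for 65 of the 75 genes in the RefSeq table. Of their 73 windows, 62 had the bases after the start in a GENCODE M21 transcript of the gene. The other windows were kept in the shares below, and their starts are less sure. Between 100 bases before and 50 after the start, TTTGAA or TTTAAA on either strand stood in 23 of 37 genes that were 2-fold higher in G2M-only than in low-score cells (62.2%) and in 5 of the 28 others (17.9%). The share was 14.7% of all 27025 genes in the table and 8.82% of 5375 genes at 10 CPM or more. CCAAT stood in 26 of the 37 (70.3%) and 9 of the 28 (32.1%), against 26.3% of all genes and 29.6% at 10 CPM or more. Both kinds stood in 18 of the 37, in 3 of the 28 and in 3.50% of all genes. By role, CHR letters were found in 8 of 11 division kinesins, 4 of 4 genes of cyclin B and the APC/C, 4 of 17 centromere genes and 3 of 17 other kinesins. The median G and C share of these windows was 61.3% in the 37 genes, 64.7% in the 28 others and 65.3% in genes at 10 CPM or more. TTTGAA and TTTAAA share letters but cannot be the same match, and a match is a description of these letters and not a bound site.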

How the data were processed

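Single-cell RNA sequencing of iMac cells was analysed from 1 matrix. It was deposited as raw counts (whole numbers, a gene by a barcode), and PISA 0.12 wrote it, per the file headers. The submitters' processing notes also name Cell Ranger and mm10, with no stated use. Not given in the sources used here are the aligner, the annotation, how cells were called and whether molecules or reads were counted. For reads, the printed intervals would be too narrow. No doublet caller was run. A setting without the 5% deepest barcodes (67623 counts or more) was run, but it does not find doublets of lower depth. Doublets may remain in every range, double-high cells included, and their part was not tested.

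Cells, scores, thinning (seed 1), pseudocount (1 CPM) and intervals (95%) were as given in the text. Ratios between ranges use counts of whole cells; the scores and shares of cells use thinned counts. Without replicates, a 2-fold ratio was the size called, over all genes at 10 CPM or more. All genes of the set may be named. In each list of other genes the 4 highest and the 3 with the largest ratio at 10 CPM or more are named, and of other genes the 15 most correlated. 1 gene that this rule names is not reported here. The genes and lists were chosen with earlier results of these data known. Positions and exon overlaps come from GENCODE M21, which holds 19659 of the symbols. In data of the 20034 genes simulated from the low-score profile, 2-fold and 4-fold changes came out at median log2 ratios of 0.97 and 1.97. The median of the unchanged genes was subtracted there, a step that the reported ratios did not have. The simulated cells took the depths of low-score and G2M-only cells but were not picked by score. The check thus covers the ratio step and not the choice of cells. Alternatives were the cell filter, CPM limit and denominator, thinning depth and seed, pseudocount, limits of the ranges, weighting of cells and deep barcodes. Python 3.11.15, numpy 2.4.6, scipy 1.17.1 and pandas 2.3.3 were used.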

Additional observations from a re-analysis of the deposited data

How the results depend on the processing

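No paired analysis was possible because the barcodes of the 1 matrix carry no sample. Of 133 counts and shares of the gene set under another setting, 124 stayed within 1.5 times the reported count or close to the reported value. The others were these. With a limit of 50 CPM, 15 genes counted as detected in place of 46. The share of cells with 5 or more of the genes was 76.6% at 5000 counts, 34.6% at 1900 counts and 85.0% unthinned. The count of genes 2-fold higher in S-only cells was 2 with a pseudocount of 10 CPM and 20 with outer terciles, and that of G2M-only over double-high cells was 4 with outer terciles. At 5000 counts the median correlation of division genes was 0.0616 (0.113 at 10000) and the median Fano factor 1.16 (1.26 at 10000), as fewer counts per cell leave more counting noise. Of 2438 ratios of single genes under another setting, 94 had the other sign, all with a reported log2 ratio of at most 0.32 in size. The sizes of ratios moved more, often past the counting intervals. Between G2M-only and low-score cells, 26 of the 46 genes fell outside the interval of the main ratio at 5000 counts. With a second seed 14 did, with outer terciles 34 and with means of single cells 31. With outer terciles, 4 of the 46 crossed 2-fold. Without ribosomal protein, mitochondrial and Gm42418 counts in the total, the median of all genes between G2M-only and low-score cells was 0.16 in place of 0.24. Cells below 10000 counts (2439) enter no range, and genes below 10 CPM have wide intervals. There is 1 sample, so spread between cultures is unknown.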
